A study of Mus musculus with 4 samples.

Results

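The Ly6 and Thy1 genes encode small proteins held on the outer face of the cell membrane, and 9 of them were examined here for open chromatin in naive CD8 T cells: Ly6a, Ly6c1, Ly6c2, Ly6d, Ly6e, Ly6g, Ly6i, Ly6k and Thy1. The members were chosen by name, with no measured value in the rule, and all 9 were found among the 21938 protein-coding genes of the GENCODE release 21 mouse models on build mm10. Most Ly6 and Thy1 proteins are tied to the membrane by a glycosylphosphatidylinositol (GPI) anchor, and the Ly6 proteins share a compact fold stabilised by disulphide bonds. Thy1 (CD90) is the classical surface marker of mouse T cells and thymocytes, Ly6a (Sca-1) is used to sort blood stem cells and is also carried by T cells, and Ly6c1 and Ly6c2 encode the Ly6C proteins of monocytes and of T cell subsets. Ly6g is the neutrophil marker of the Gr-1 antigen, Ly6d is found on early B lineage cells and keratinocytes, Ly6e on immature thymocytes, and Ly6k is known for its role in sperm.

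The assay was DNase-seq, which sequences the ends that the enzyme DNase I leaves where chromatin is open, and 4 libraries of naive resting CD8-positive alpha-beta T cells were deposited. All came from female virgin B6CASTF1/J mice aged 2 months, the first-generation cross of a laboratory strain with the wild-derived CAST strain, and the labels name no treatment. The libraries were labelled biological replicates 1 to 4 of 1 group, so genes, sites and libraries were compared within that group. The labels give a biosample of its own to each library but 1 donor identifier to all, with no statement on separate animals, so the spread between libraries may be partly technical.

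The libraries were not equal. Replicates 1 to 4 had 69413, 70552, 51121 and 20647 peaks in the longer list of each, at depths of 109, 62.9, 91.5 and 24.3 M tags (M, mega) read from the steps between peak heights. Of the 52572 sites called in both replicates 1 and 2, replicate 3 called 77.5% and replicate 4 called 33.9%. Replicates 3 and 4 also lacked a peak at the start of Cd8a, the coreceptor chain that defines the sorted cells, where replicates 1 and 2 had one, while Cd8b1 was called in all 4. Replicates 1 to 4 called 8, 8, 7 and 4 of 8 T cell marker promoters and 6, 5, 7 and 5 of 8 B cell marker promoters. They called 4, 4, 5 and 3 of 6 endothelial and stromal ones and 2, 2, 3 and 0 of 5 natural killer cell ones. Among all coding genes 58.4%, 58.5%, 56.7% and 46.3% had a promoter peak in replicates 1 to 4. The counts alone do not show which cells a library held. Several B cell markers were higher in replicates 3 and 4. Pax5, a B lineage regulator, stood at 0.584, 0.648, 1.02 and 1.67 on the relative scale defined below, Ebf1 at 0.247, 0.415, 0.729 and 0.772 and Blk at 0.0844, 0.0952, 0.323 and 0.439. Cd79a was called only in replicates 3 and 4, at 0.347 and 0.684, whereas Cd22 did not divide this way (0.502, 0.79, 0.55 and 0.737). Of 10 myeloid marker promoters 3 were called in each of replicates 1 to 3 and 0 in replicate 4. The 3 called were Spi1 at 0.349, 0.276 and 0.388, Itgam at 0.244, 0.206 and 0.172, and Lyz2 at 0.156, 0.0876 and 0.137. S100a8, S100a9, Csf3r, Elane, Mpo, Cebpe and Csf1r had no peak in any library. Results are therefore given for each library, and the counts also for replicates 1 and 2 alone.

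Most Ly6 starts had no called open site in these cells. A site was a run of overlapping peaks from any library, a consensus site was one called in at least 3 of the 4 libraries, and a gene's promoter took in all bases up to 1 kb from any annotated start. By that measure Ly6e, Ly6k and Thy1 had a consensus site at the promoter and Ly6a, Ly6c1, Ly6c2, Ly6d, Ly6g and Ly6i had none, which is 3 of 9 members, or 33.3%, against 55.1% of all coding genes. The 6 others had no peak at all there in any library. In replicates 1, 2, 3 and 4, 3, 3, 3 and 1 members had a promoter peak, against 58.4%, 58.5%, 56.7% and 46.3% of coding genes. With replicates 1 and 2 alone, both required, the promoters of Ly6e, Ly6k and Thy1 were again those called. Ly6k was the 1 promoter left when all 4 libraries were required, or when replicate 1, 2 or 3 was left out and the other 3 libraries were all required. The shorter peak lists lost Ly6e, and a promoter taken at the 5' end only lost Thy1. No test was made on these shares. In a pool of cells a low peak can come from a few open cells or from weak opening in many, and these cannot be told apart.

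Cut-rate intervals gave the same division of the 9 genes, and footprints did except at Ly6e. Cut-rate intervals, the stretches in which the density of DNase cuts passed the deposited limit of 0.05, covered 0 bp within 1 kb of any start of Ly6a, Ly6c1, Ly6c2, Ly6d, Ly6g and Ly6i in all 4 libraries. Among all coding genes the median was 514, 422, 428 and 0 bp in replicates 1 to 4, and 56% had an interval in at least 3 libraries. Footprints, the short stretches protected from DNase within open sites, were 0 at these 6 genes in every library, which follows closely from their lack of peaks. Of coding genes 52.8% had one in at least 3 libraries. Peaks, cut-rate intervals and footprints came from the same libraries and are not independent of each other. Ly6e, Ly6k and Thy1 had cut-rate intervals in at least 3 libraries, and Ly6k alone among them had any in replicate 4. Footprints were found in at least 3 libraries at Ly6k and Thy1 and in 2 at Ly6e.

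For Ly6a, Ly6c1 and Ly6c2 the absence of peaks has to be read beside their sequence, because a read from sequence with an identical copy cannot be assigned to 1 of them. Of the 36-base stretches within 1 kb of the 5' end, 43.4%, 41.1% and 46.7% occurred only once in the genome for Ly6a, Ly6c1 and Ly6c2, against a median of 98.9% over coding genes. With 75-base stretches the shares were 67.7%, 66.6% and 66.6%. Only 6.36% of coding genes lay under 50% by the 36-base measure. Of those 1395 genes 7.46% had a consensus promoter site, against 61.5% of the 18098 genes at 90% or more. These sets of genes may differ in more than their sequence, so the contrast does not measure an effect of repeats. In the chromosome 15 region described below, 2 of 24 consensus sites lay under 50%, at 33.2% and 47.9%, beside 1.19% of consensus sites genome-wide. The sites at chr15:75088141-75088380 and chr15:75117541-75117740, at 29.8% and 26.1%, were called in replicates 1 and 2 only. Since these are all called sites, they do not show how often repeated sequence goes without a call. For read length and for reads with several matches, the sources used here give nothing, and the part that repeated sequence plays in these 3 genes was not tested.

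The stretch upstream of Ly6c1 shows how close the copies are. The 250 bases before the first start of Ly6c1 were 249 of 250 identical to a stretch at the start of Ly6a, chr15:74997925-74998174. The 1 difference was G22A, with the base of Ly6c1 first and positions counted from 1 at the 5' end of the sequence, and the capital marks it.
Ly6c1 upstream, chr15:75048831-75049080, minus strand: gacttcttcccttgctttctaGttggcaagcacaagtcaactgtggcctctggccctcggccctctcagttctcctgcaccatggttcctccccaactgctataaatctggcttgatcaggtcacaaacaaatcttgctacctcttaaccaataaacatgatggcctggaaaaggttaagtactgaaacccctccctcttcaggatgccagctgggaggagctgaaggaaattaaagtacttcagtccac
Here and below sequences were read from the RefSeq GRCm38.p6 genome, which is mm10, and run 5' to 3' on the strand named. The corresponding 250 bases of Ly6c2 matched the Ly6i upstream stretch at 87.9% and a further stretch between Ly6c2 and Ly6g at 96.4%.

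The other 3 promoters without a peak lay in sequence that can mostly be placed. At Ly6d 100% of the 36-base stretches within 1 kb of the 5' end were unique, at Ly6g 84.1% and at Ly6i 82.1%. With 75-base stretches Ly6g and Ly6i reached 99.3% and 98.1%. The plot of unique sequence and cutting at the 9 starts sets the members side by side.

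**Figure D1:**
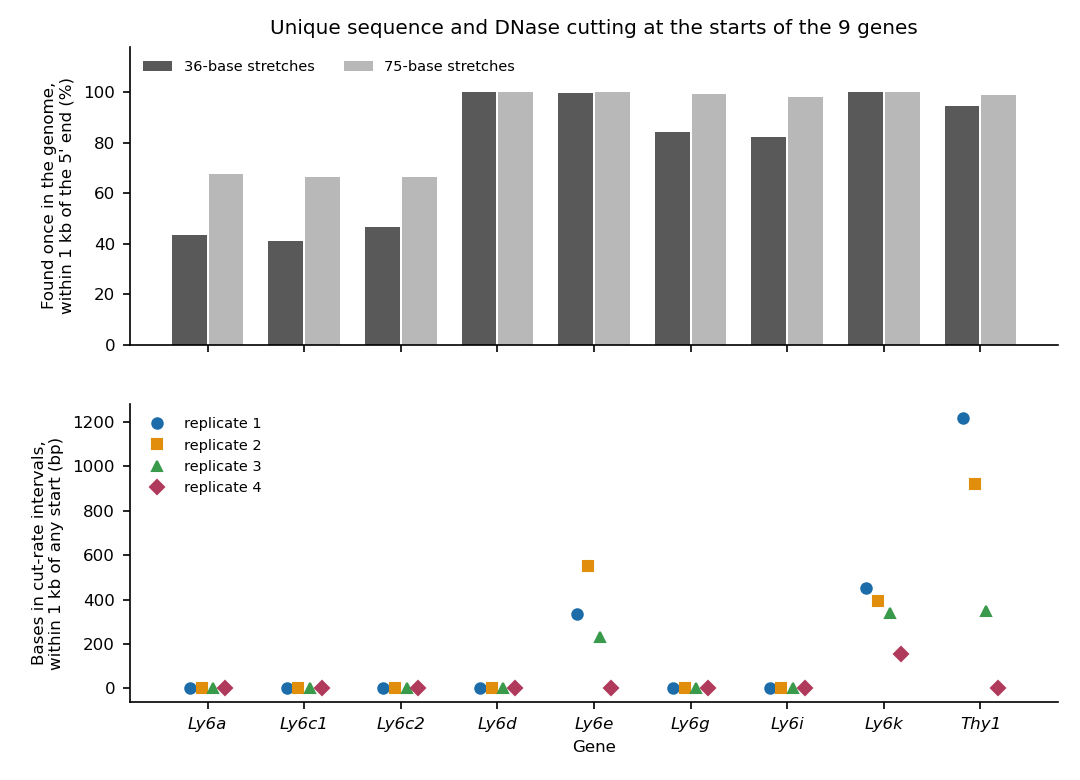
The upper panel gives, for each gene, the percentage of 36-base and 75-base stretches within 1 kb of the 5' end that occur once in the genome, and the lower panel gives the bases in cut-rate intervals within 1 kb of any start, 1 point per library. Ly6a, Ly6c1 and Ly6c2 lie at 43.4%, 41.1% and 46.7% for 36 bases, and cutting above 0 bp appears only at Ly6e, Ly6k and Thy1. The stretch searched for cutting is longer where starts are spread out, as at Thy1, so the bases do not rank the genes.

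Ly6k, a sperm protein gene, was the member called at its start in all 4 libraries. Its site at chr15:74799821-74800060 covered the first annotated start, and its relative height was 0.402, 0.32, 0.399 and 0.439 in replicates 1, 2, 3 and 4. Relative height divides a peak's height by that library's median over the sites that all 4 libraries called. The 4 values lay close together, and replicate 4 was not lower than the others. Cut-rate intervals covered 453, 392, 340 and 156 bp, and footprints numbered 4, 4, 2 and 0. This promoter was low next to others, since the median over coding promoters called in all 4 libraries was 1.56. Among 10080 other genes called in all 4, those with the most similar heights were Mbtps2, Pgbd5 and Tmem71, with root mean square log2 differences of 0.0722, 0.0732 and 0.0973 over the 4 libraries.

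A footprint over the first start of Ly6k was found in replicates 1, 2 and 3, and its upstream part is shown. Capitals here and in the sequences that follow mark bases inside footprints of at least 2 libraries, and in the upstream sequences the last base printed is the one before the first start.
Ly6k upstream, chr15:74799987-74800236, minus strand: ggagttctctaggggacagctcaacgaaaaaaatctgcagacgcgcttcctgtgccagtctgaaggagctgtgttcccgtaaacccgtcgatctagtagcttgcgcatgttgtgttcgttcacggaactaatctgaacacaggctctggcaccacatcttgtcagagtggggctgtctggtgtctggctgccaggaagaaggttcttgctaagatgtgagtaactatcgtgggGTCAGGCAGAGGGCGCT
The 17 marked bases are the part of that footprint before the start, and it runs on into the gene.

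Ly6e, a thymocyte antigen gene with 15 annotated starts, was called at its internal starts. Its consensus site at chr15:74955481-74955740 lay 0.559 kb downstream of the 5' end and covered 5 of those starts, at relative heights of 0.393, 0.49 and 0.522 in replicates 1 to 3 and no peak in replicate 4. The first start lay in a lower site seen only in replicate 2, at 0.122. Intervals of cutting covered 335, 552, 232 and 0 bp, and footprints numbered 4, 2, 0 and 0. Of 2978 sites of like height elsewhere in the genome, within 10% of the mean over replicates 1 to 3, 35.8% had a peak in replicate 4, so a missing call there was common.

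Thy1, the T cell marker, had 4 promoter sites, and the 2 at its first starts were missing in replicates 3 and 4. The site at chr9:44043101-44043525, over the first start, reached relative heights of 0.282 in replicate 1 and 0.217 in replicate 2. The site at chr9:44043753-44043960, over a start 396 bp further on, had 0.196 and 0.324. Neither was called in replicate 3, although that library had a peak at 80.6% and 81.6% of the genome's sites of like height. The 2 promoter sites that reached the consensus were inside the gene, in an intron at chr9:44044481-44044684, with 0.244, 0.312 and 0.32 in replicates 1 to 3, and over an exon at chr9:44047121-44047400, with 0.387, 0.276 and 0.34. Replicate 4 called none of the 4, and 16.3% and 21.3% of sites with heights like those of the 2 inner sites had a peak there. Cut-rate intervals at the Thy1 starts covered 1218, 922, 349 and 0 bp, and footprints numbered 12, 10, 2 and 0. The stretch searched takes in every annotated start, the last of them 4538 bp from the 5' end at Thy1 and 453 bp at Ly6k. These bases and footprints are therefore not comparable between genes. Both readouts were lower in replicate 3 than in replicates 1 and 2. The promoters of Cd8a, at 0.498 and 0.366 in replicates 1 and 2, and of Cd2 also had no peak in replicates 3 and 4. The other T cell and CD8 lineage markers were not divided in this way. Cd8b1, Runx3, Lck, Lat, Cd3d and Cd5 were called in all 4 libraries, and Cd247, Cd3g and Cd3e in replicates 1 to 3. The B cell genes Pax5, Ebf1, Blk and Cd79a were higher in replicates 3 and 4 than in 1 and 2, and Cd22 was not. The part that the makeup of the libraries plays at Thy1 was not tested.

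The Thy1 upstream stretch, open in replicates 1 and 2, and the intron site, open in replicates 1 to 3, are printed for comparison.
Thy1 upstream, chr9:44043134-44043383, plus strand: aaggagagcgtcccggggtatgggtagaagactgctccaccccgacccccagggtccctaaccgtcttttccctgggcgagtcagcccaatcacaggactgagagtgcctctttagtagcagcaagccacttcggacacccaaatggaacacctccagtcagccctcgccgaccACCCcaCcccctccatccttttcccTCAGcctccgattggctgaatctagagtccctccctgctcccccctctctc
Thy1 intron site, chr9:44044481-44044684, plus strand: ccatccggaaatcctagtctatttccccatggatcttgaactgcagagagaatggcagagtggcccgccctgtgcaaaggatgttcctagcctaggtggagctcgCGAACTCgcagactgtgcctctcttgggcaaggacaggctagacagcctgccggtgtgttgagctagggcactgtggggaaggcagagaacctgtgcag
Within 1 kb of the Thy1 5' end 94.6% of the 36-base stretches were unique, and all 6 consensus sites of the locus were unique throughout.

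The order of the 3 open members could not be tested over 4 libraries, since Ly6k alone was called in all of them. Over replicates 1 to 3 the mean relative height of the tallest promoter site in each library was 0.468 ± 0.067 (SD, n = 3) for Ly6e, 0.374 ± 0.0465 for Ly6k and 0.35 ± 0.0326 for Thy1. At Thy1 the tallest site of replicate 2 was not a consensus site, and the taller consensus site alone, chr9:44047121-44047400, averaged 0.334 ± 0.0555. The exact two-sided sign-flip permutation p was 0.5 for each of the 2 neighbouring pairs, 0.5 after Benjamini-Hochberg adjustment. Since 3 libraries allow no p below 0.25, this test could not show a difference, and the order is a description.

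Most consensus sites of the Ly6 cluster lay away from annotated starts. The region from 25 kb before the first chromosome 15 member to 25 kb after the last, chr15:74737056-75184126, spans 447 kb and held 36 sites, of which 24 were consensus sites and 9 were called in all 4 libraries. Of 28 sites called in both replicates 1 and 2, replicate 3 called 24 and replicate 4 called 9, and leaving out replicate 1, 2 or 3, with a call in each other library required, also left 9. Only 7 of the 24 lay within 1 kb of any annotated start, and 2 of those were at a member (Ly6e and Ly6k), whereas 46.5% of all 41228 consensus sites lay that close to a start. The 17 consensus sites away from starts had a median relative height of 0.423 over replicates 1 to 3, beside 0.33 for all 22077 such sites of the genome. Counted per gene body plus 25 kb, the loci held 5 consensus sites for Ly6a, 3 for Ly6c1, 3 for Ly6c2, 5 for Ly6d, 4 for Ly6e, 3 for Ly6g, 6 for Ly6i, 2 for Ly6k and 6 for Thy1. The median was 4 for members and 3 for all coding genes, and each of the 9 had at least 1, as did 75.5% of coding genes. The share of coding loci with fewer consensus sites ran from 34.5% for Ly6k to 77.2% for Ly6i and Thy1. Neighbouring Ly6 loci overlap and share sites.

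The 3 tallest sites of the cluster, by the mean over replicates 1 to 3, were intergenic. The site at chr15:74992841-74993020, past the 3' end of Ly6a, reached relative heights of 1.21, 1.5 and 1.01 in replicates 1 to 3, a mean of 1.24 ± 0.244 (SD, n = 3). It was higher than 94.9% of the genome's consensus sites away from starts. Replicate 4 had no peak there, although it called 92.7% of 1805 sites of like height. The site at chr15:74968301-74968500, between Ly6e and Ly6i, had 1.06, 1.26, 1.07 and 0.877 in replicates 1 to 4. Its mean over replicates 1 to 3, 1.13 ± 0.112, was above 93.5% of such sites, and the site is printed because all 4 libraries called it.
Site between Ly6e and Ly6i, chr15:74968301-74968500, plus strand: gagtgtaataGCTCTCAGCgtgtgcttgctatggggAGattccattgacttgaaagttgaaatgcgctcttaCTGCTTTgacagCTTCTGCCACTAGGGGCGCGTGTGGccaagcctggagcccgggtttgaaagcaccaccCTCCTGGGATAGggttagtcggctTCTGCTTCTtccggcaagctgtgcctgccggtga
Upstream of Ly6c1, the site at chr15:75062121-75062320 had 1.17, 1.15, 0.756 and 0.526. Upstream of Ly6c2, the site at chr15:75116581-75116820 had 0.878, 0.8 and 0.625 in replicates 1 to 3 and no peak in replicate 4, where 68.6% of like sites had one. The map of peaks along the cluster shows these sites between the genes.

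**Figure D2:**
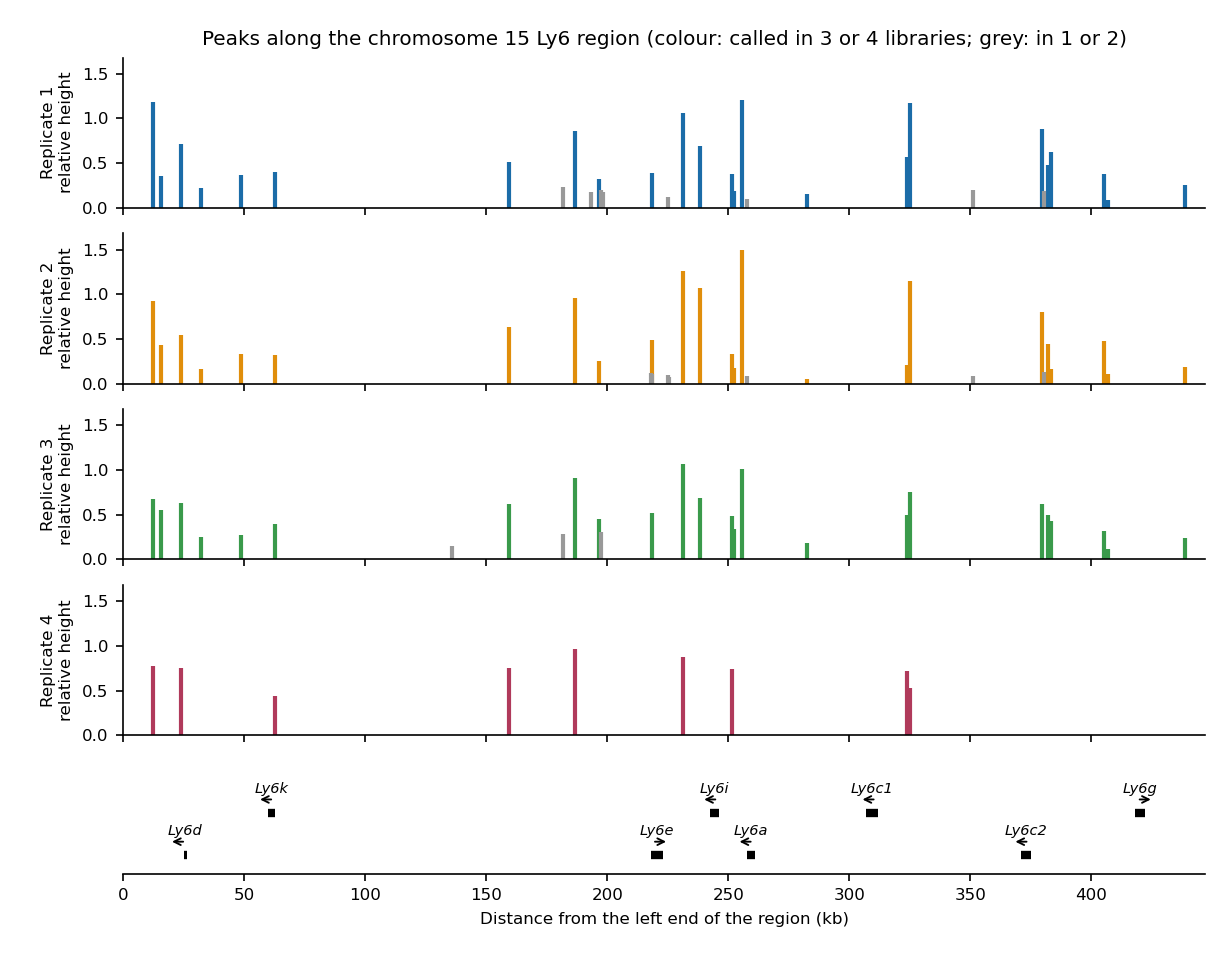
Relative peak height (linear axes, the same in each panel) along the chromosome 15 Ly6 region in kb from its left end, 1 panel per library, with coloured lines for sites called in at least 3 libraries and grey lines for the others; black bars are the 8 members there and arrows their direction. The tallest lines stand between genes, and replicate 4 shows 9 peaks against 32, 31 and 27 in replicates 1 to 3.

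Footprints were found at nearly all of these sites in replicates 1 to 3. In the Ly6 region 23, 23, 22 and 3 of the 24 consensus sites held a footprint in replicates 1 to 4, beside 90.9%, 89.7%, 85.4% and 26.7% of consensus sites genome-wide. They numbered 79, 68, 71 and 3 inside the consensus sites. At the Thy1 locus 5, 5, 6 and 1 of 6 consensus sites held one, and there were 20, 15, 18 and 5 footprints in all inside them. The values were similar in replicates 1 to 3 in both regions, and low in replicate 4.

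Many of the Ly6 sites lay in repeated sequence. In 12 of the 24 consensus sites part of the site matched a second stretch of the region, and only 11 had 36-base stretches that were all unique, beside 89.4% of consensus sites in the genome. Over the whole region 72.4% of 36-base stretches were unique, beside 93.9% at the Thy1 locus. By alignments of at least 130 bp at 75% identity or more, 2 repeats stood out after the values were seen, called A and B here. The copies of repeat A that were sites matched each other at 80.7% to 96.5%, and those of repeat B at 80.1% to 94.6%. In 5 places a copy of A and a copy of B lay 1.33 to 1.76 kb apart.

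Repeat A had 7 copies, of which 4 were consensus sites and 3 had no peak in any library. Copy 1 is the site past Ly6a and copy 3 the site upstream of Ly6c1, both given above. Copy 5, upstream of Ly6c2, had 0.476, 0.446 and 0.498 in replicates 1 to 3, and copy 6, upstream of Ly6g, had 0.38, 0.474 and 0.313. The copies without a peak divide in their sequence: copies 2 and 4 had 0% unique 36-base and 0% unique 75-base stretches, so that every such stretch has another exact match in the genome, whereas copy 7 had 91.4% and 100%. Printed for each copy of A, and of B below, are the 60 aligned columns that held the most marked bases over all copies. The window was thus chosen from the footprints it shows, and marked bases outside it are left out.
Repeat A copy 1, chr15:74992909-74992952, plus strand: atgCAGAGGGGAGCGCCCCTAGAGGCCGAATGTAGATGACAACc
Repeat A copy 2, chr15:75021220-75021277, minus strand: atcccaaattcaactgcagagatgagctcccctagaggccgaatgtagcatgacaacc
Repeat A copy 3, chr15:75062203-75062260, minus strand: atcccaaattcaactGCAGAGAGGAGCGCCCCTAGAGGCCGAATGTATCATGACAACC
Repeat A copy 4, chr15:75089664-75089721, minus strand: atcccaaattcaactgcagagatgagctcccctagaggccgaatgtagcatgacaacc
Repeat A copy 5, chr15:75118889-75118946, plus strand: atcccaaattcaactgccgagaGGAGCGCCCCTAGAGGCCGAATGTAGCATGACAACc
Repeat A copy 6, chr15:75142125-75142182, plus strand: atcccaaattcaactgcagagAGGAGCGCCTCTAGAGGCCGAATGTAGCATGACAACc
Repeat A copy 7, chr15:75167718-75167775, plus strand: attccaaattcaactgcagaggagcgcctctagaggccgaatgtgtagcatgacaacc
In the 4 open copies the marked footprint covers the same part of the repeat.

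Repeat B had 6 copies, and all of them were sites, 5 in the consensus. Copy 2, upstream of Ly6c1, was called in all 4 libraries at 0.567, 0.208, 0.495 and 0.719. Copy 4, upstream of Ly6c2, had 0.627, 0.164 and 0.433 in replicates 1 to 3, and copy 6, downstream of Ly6g, had 0.26, 0.189 and 0.244. Replicate 2 was the lowest of replicates 1 to 3 at 4 of the 5 consensus copies; at copy 5 it lay between them, with 0.0844, 0.11 and 0.12. Copy 3 was called in replicates 1 and 2 only, at 0.2 and 0.0857, and 29.8% of its 36-base stretches were unique.
Repeat B copy 1, chr15:75019730-75019784, plus strand: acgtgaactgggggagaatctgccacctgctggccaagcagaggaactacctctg
Repeat B copy 2, chr15:75060686-75060742, plus strand: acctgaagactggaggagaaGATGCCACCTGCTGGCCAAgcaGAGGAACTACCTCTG
Repeat B copy 3, chr15:75088220-75088274, plus strand: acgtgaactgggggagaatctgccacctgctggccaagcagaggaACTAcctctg
Repeat B copy 4, chr15:75120233-75120288, minus strand: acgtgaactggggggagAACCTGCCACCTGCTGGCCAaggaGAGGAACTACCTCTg
Repeat B copy 5, chr15:75143909-75143965, minus strand: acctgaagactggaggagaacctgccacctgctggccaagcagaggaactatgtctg
Repeat B copy 6, chr15:75175681-75175737, minus strand: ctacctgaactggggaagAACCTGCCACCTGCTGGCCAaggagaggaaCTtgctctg
The longest marked run lies over the same letters in copies 2, 4 and 6. Copies 1 and 5 have 0 marked bases, and copy 3 has 4, outside that run, at letters also marked in copies 2 and 4.

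The letters under these footprints include the binding sequence of CTCF, a protein that binds insulators and the bases of chromatin loops. The longer CTCF consensus, searched on both strands after the values were seen, was found in all 6 copies of repeat B. With footprints widened by 5 bp on each side, the match lay in a footprint of replicates 1, 2 and 3 at copies 2, 4 and 6, of 1 library at copies 3 and 5, and of 0 libraries at copy 1. Without the widening, replicates 1 and 3 held it at copies 2, 4 and 6 and replicate 2 did not. Elsewhere in the region it was found at chr15:74896441-74896620 and chr15:74923561-74923760, each with a footprint over it in replicates 1, 2 and 3. Of all 41228 consensus sites 10.6% held it. At the first of these sites replicate 2 was not low, with 0.511, 0.63, 0.615 and 0.754 in replicates 1 to 4, nor at the second, with 0.856, 0.962, 0.911 and 0.965. Of 14 shorter motifs searched, the RUNX letters TGTGGT, bound by a transcription factor family of the CD8 lineage, were found 9 times in the region's consensus sites. Of these matches 7 lay in footprints of at least 2 libraries after the same widening, and 5 without it; for the GC box GGGCGG it was 6 of 9 with the widening and 2 without it. The share of matches in footprints genome-wide was not computed. In the central 100 bp RUNX letters were in 4 of 24 Ly6 sites and 1 of 6 Thy1 sites, beside 10.3% of all consensus sites. The IRF letters GAAANNGAA and the AP-1 letters TGANTCA were each in 2 of 24 Ly6 sites, beside 2.35% and 2.49%. Over whole sites 0 of 4 IRF and 0 of 3 AP-1 matches lay in footprints of at least 2 libraries. The ETS letters AGGAAG, the GC box and CCAAT were also in 2 sites each, beside 16.4%, 18.4% and 12.4%. CCGGAA and CTTTGA were in 2 each, beside 6.83% and 5.52%, and TATAAA in 1, beside 1.99%. AGGNGGC was in 6, beside 23.4%. The E-box CAGCTG was in 0, beside 6.63%, as were the GATA, STAT and NF-kB letters. These counts are small and were not tested. A match describes letters and does not show that a protein was bound.

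**Figure D3:**
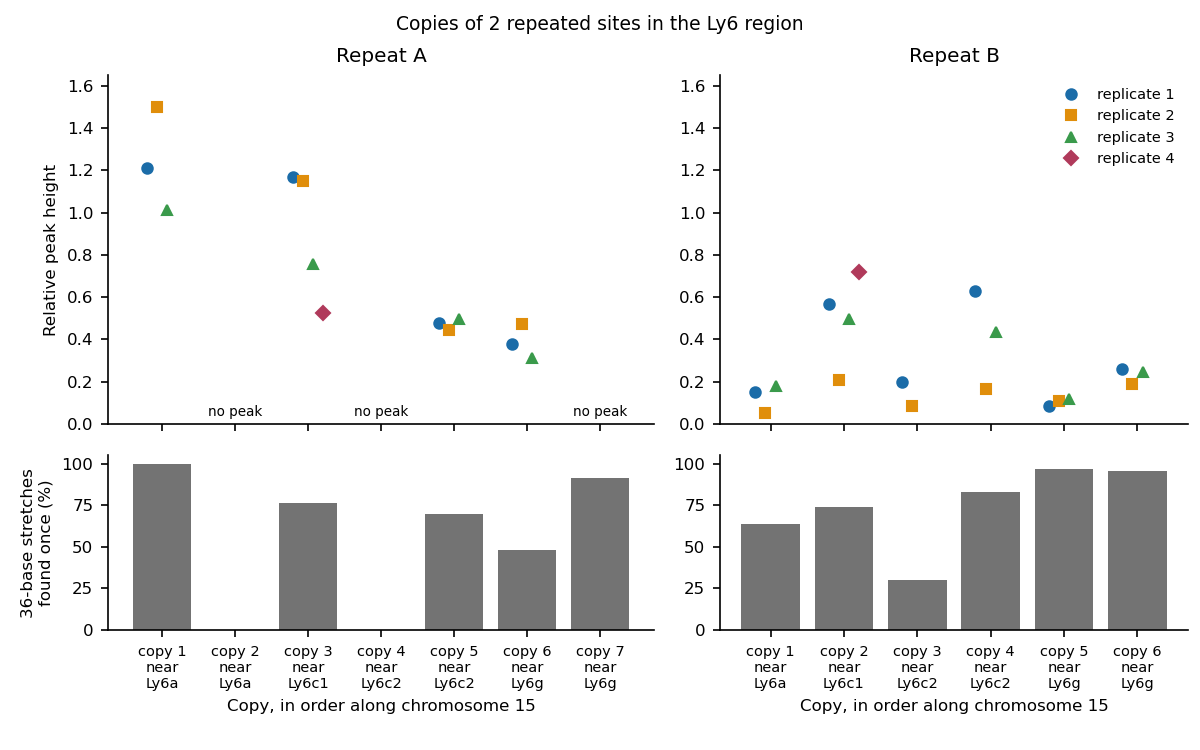
The upper panels give the relative peak height of each copy of repeats A (left) and B (right), 1 point per library that called it, in order along the chromosome, and the lower panels give the percentage of 36-base stretches of the copy found once in the genome. Copies 2 and 4 of repeat A, at 0%, had no peak, and copy 7, at 91.4%, had none either.

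The Thy1 locus, chr9:44018384-44073579, held 14 sites, of which 6 were consensus sites, and 10 were called in both replicates 1 and 2. Replicate 3 called 6 of those 10 and replicate 4 called 1, and 1 was left without replicate 1, 2 or 3 on the same terms. The shorter peak lists gave 3 consensus sites here. Upstream of the gene, the site at chr9:44031041-44031480 reached relative heights of 0.642, 0.453 and 0.522 in replicates 1 to 3, and the site at chr9:44034001-44034334 had 0.724, 0.461 and 0.333. Both were higher than most such sites of the genome, above 72.6% and 70% of them, and neither had a peak in replicate 4, where 44.6% and 40.6% of like sites did. A site 13.6 kb upstream had peaks in replicates 1 and 2 but none in replicate 3, which called 95.3% of sites of like height. The 1 site called in all 4 was the promoter of Usp2, a ubiquitin protease gene, at chr9:44066861-44067120, with 4.98, 5.37, 5.14 and 3.88. It was the tallest of the locus in every library, and the Thy1 sites were all far lower.

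**Figure D4:**
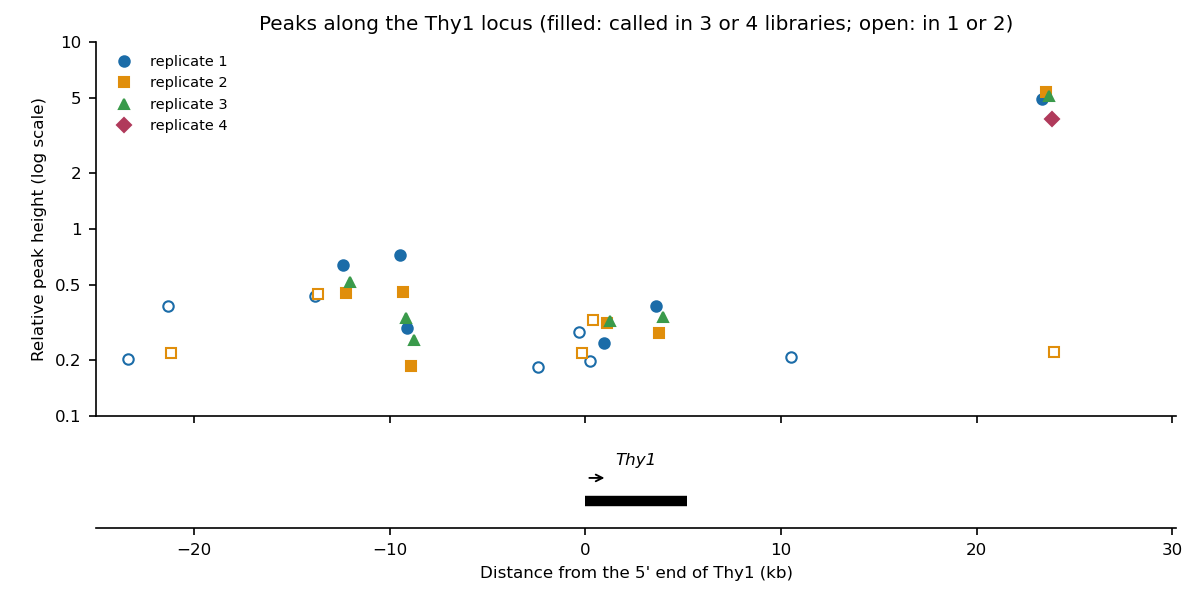
Relative peak height on a log axis against the distance from the Thy1 5' end in kb, 1 point per site and library, filled where the site was called in at least 3 libraries and open otherwise, with the gene as a bar and its direction as an arrow. Open points over the start belong to replicates 1 and 2, and the Usp2 promoter at the right lies between 3.88 and 5.37.

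Most relatives of these genes had no consensus site at the promoter either. Of 28 other genes of the Ly6 and urokinase receptor family 4 had a consensus promoter site, or 14.3%, against 55.1% of all coding genes. In replicates 1 to 4, 6, 5, 5 and 0 of them were called, against 58.4%, 58.5%, 56.7% and 46.3% of coding genes. Lynx1, a modulator of nicotinic receptors and a neighbour of Ly6d, had 0.36, 0.434 and 0.55 in replicates 1 to 3. Ly6g5b had 0.456, 0.303 and 0.526, Plaur, the urokinase receptor, 0.469, 0.251 and 0.447, and Cd59b, an inhibitor of complement, 0.182, 0.13 and 0.244. Within the cluster 4 of 16 coding genes with a start in it had a consensus promoter site: Lynx1, Ly6k, 2010109I03Rik and Ly6e. The genes that build the GPI anchor had a consensus promoter site at 28 of 28, against 55.1% of all coding genes. In replicate 4 a promoter peak was found at 26 of them, against 46.3% of coding genes.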

How the data were processed

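The 4 DNase-seq libraries were analysed from lists deposited with each of them on mm10, per the labels. The deposited peak height is a signal scaled to the depth of its library, and the reciprocal of the smallest step between heights was read as the number of tags. The deposited footprint value and the deposited cut-rate value are each a p-value or q-value, 0.01 in all footprint entries and under 0.05 for cutting; the files' own descriptions name the latter an FDR (false discovery rate). The aligner, the peak and footprint callers and the read length were not given in the sources used here. Reads of the CAST allele differ from the reference, and the effect on the heights was not tested.

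Peaks of the longer list of each library were joined into 1 site on sharing 1 bp or more, which gave 86936 sites, of which 41228 were called in at least 3 libraries. The merging was checked against bedtools 2.31.1, which gave 86936 as well. Gene models were GENCODE release 21, promoters lay within 1 kb of any start, and loci were gene bodies plus 25 kb. All 9 members and 28 of 30 listed relatives were found. Unique sequence was the share of 36-base or 75-base stretches with 1 exact match on both strands of the genome. Copies were found with blastn 2.17.0 and aligned with mafft 7.526. A total of 14 motifs were searched on both strands, and a match counted as in a footprint when it lay within it after widening by 5 bp on each side; the core AGGNGGC, at 10 matches in the Ly6 consensus sites, can lie inside the longer CTCF consensus. Sites of like height were those within 10% of the mean. No count of reads per site was used, so no counting interval is given. Python 3.11.15, numpy 2.4.6, pandas 2.3.3, numba 0.67.0 and matplotlib 3.10.9 were used, and the merging, the count of unique stretches and the motif search were tested on simulated data.

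Members and lists were chosen with earlier results of these data known. The genes named were the members, up to 4 relatives with the highest promoters, coding genes with a consensus promoter site in either region, and the 3 genes nearest in height to each member called in all 4 libraries. Marker genes were named from their lists. The repeats and the longer CTCF consensus were chosen after the values were seen. Alternatives were the shorter peak lists, other numbers of libraries, 50% reciprocal overlap, each replicate left out, replicates 1 and 2 only, other windows, all footprints, footprints without the widening (chosen after seeing the data) and stricter cut-rate values.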

Additional observations from a re-analysis of the deposited data

How the results depend on the processing

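The 3 member promoters became 2 with the shorter peak lists (Ly6k and Thy1) and 2 at the 5' end only (Ly6e and Ly6k), and 1 (Ly6k) when all 4 libraries were required. They stayed at 3 with at least 2 libraries, 50% reciprocal overlap, windows of 500 bp or 2.5 kb, and replicates 1 and 2 only. Without 1 replicate at a time, and with a call needed in each of the 3 left, there were 1 to 3 member promoters, 9 to 24 sites in the Ly6 region and 1 to 6 at the Thy1 locus; the low values come without replicates 1, 2 or 3, when replicate 4 must call the site, and the high ones without replicate 4. The 24 sites of the Ly6 region became 9 with all 4 libraries required, and lay between 20 and 34 under the other settings. The 6 sites of the Thy1 locus became 3 with the shorter lists, 1 with all 4 libraries, 10 with at least 2 libraries, 10 with replicates 1 and 2 only, 2 with 5 kb on each side and 18 with 100 kb, and 5 with 50% reciprocal overlap. Footprints per library averaged 55.2 in the Ly6 consensus sites and 61 over the region, and 14.5 and 21.5 at the Thy1 locus. The 3 members with cut-rate intervals were 3 below 0.01 and 3 below 0.001. The number of neighbouring pairs of members that could be ordered, each called in every library used, was 0 with 4 libraries, deposited heights or the shorter lists, and 0 to 2 when each replicate was left out in turn, with the 2 pairs without replicate 4. Without the widening, an alternative chosen after seeing the data, RUNX matches in footprints of at least 2 libraries went from 7 to 5 and GC box matches from 6 to 2. No paired analysis was possible because there is only 1 group.

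Replicate 4 had the fewest tags, 24.3 M, and the fewest peaks, but peaks did not follow tags in the other libraries. For a site without a peak in replicate 4, depth, the makeup of the library and closed chromatin cannot be told apart. The part of repeated sequence at Ly6a, Ly6c1 and Ly6c2 was not tested.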
